A study of Mus musculus with 11 samples.

Results

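Secreted antagonists of bone morphogenetic proteins (BMPs) were followed across the mesenchymal cells of the mouse small intestine. The 9 genes were chosen by symbol: Grem1, Chrdl1, Bmper, Chrd, Nbl1, Twsg1, Fst, Sostdc1 and Nog. All 9 were found among 24969 names of the bulk count table, 27934 genes of the sorted single-cell matrix and 31017 genes of the whole-mesenchyme matrices, and all 9 passed the filter on low counts in bulk. The bulk libraries came from sorted cells, 2 for each of 4 populations: telocytes (GFPHi cells of the PDGFRAH2BEGFP transgenic mouse), PDGFRAlo stromal cells (GFPLo cells of the same line), and, from C57BL/6 mice, blood endothelium (CD31+LYVE1-) and lymphatic endothelium (CD31+LYVE1+). GFP in this line is read from Pdgfra, so the sort takes cells that use that gene. Droplet single-cell libraries held sorted GFP cells (1 library, GFPLo and GFPHi cells mixed) and whole small-intestinal mesenchyme (2 libraries). The sorted cells were mixed at 2 parts GFPLo to 1 part GFPHi, so shares of that library's UMIs depend on this set ratio. Muscle had been stripped and epithelium removed from the whole small intestine beforehand, and the labels name no treatment and no age.

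BMP ligands signal through paired serine/threonine kinase receptors and Smad proteins, and in the intestine they act against crypt stem-cell renewal and for differentiation along the villus. Antagonists bind the ligands outside the cell and keep them from their receptors. Gremlin 1 (Grem1), noggin (Nog), chordin (Chrd), chordin-like 1 (Chrdl1), NBL1 (also called DAN) and sclerostin domain-containing 1 (Sostdc1) bind BMPs, follistatin (Fst) chiefly binds activins, and the chordin partners Twsg1 and Bmper can either help or oppose chordin.

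Promoters are shown for genes that lay on opposite sides of the main contrast, Grem1 for PDGFRAlo cells and Chrd, Nbl1 and Twsg1 for telocytes. RefSeq's table (GRCm38.p6, 250 bases before to 50 after each gene start, 32851 promoters) held 5 of the 9 genes; Bmper is the fifth. The other 4 are Chrdl1, Fst, Sostdc1 and Nog. Sequences run 5′ to 3′ on the gene's strand, and capitals mark GGCGCC (a GC-rich Smad-binding palindrome), GGGCGG or its complement CCGCCC (the GC box), and CAGCTG (an E-box).
Grem1, chr2:113758599-113758898, minus strand: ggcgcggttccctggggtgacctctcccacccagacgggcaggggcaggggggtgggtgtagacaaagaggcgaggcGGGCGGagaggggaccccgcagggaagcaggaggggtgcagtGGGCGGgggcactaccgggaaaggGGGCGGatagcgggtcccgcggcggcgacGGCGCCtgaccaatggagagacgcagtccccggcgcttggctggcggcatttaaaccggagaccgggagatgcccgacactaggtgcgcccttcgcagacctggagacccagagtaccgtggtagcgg
Chrd, chr16:20732877-20733176, plus strand: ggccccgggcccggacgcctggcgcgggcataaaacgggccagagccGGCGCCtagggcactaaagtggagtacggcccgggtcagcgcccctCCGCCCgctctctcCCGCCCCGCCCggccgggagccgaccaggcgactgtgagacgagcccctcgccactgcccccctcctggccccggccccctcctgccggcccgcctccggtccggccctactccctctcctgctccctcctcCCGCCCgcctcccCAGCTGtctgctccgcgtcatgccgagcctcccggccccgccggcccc
Nbl1, chr4:139092921-139093220, minus strand: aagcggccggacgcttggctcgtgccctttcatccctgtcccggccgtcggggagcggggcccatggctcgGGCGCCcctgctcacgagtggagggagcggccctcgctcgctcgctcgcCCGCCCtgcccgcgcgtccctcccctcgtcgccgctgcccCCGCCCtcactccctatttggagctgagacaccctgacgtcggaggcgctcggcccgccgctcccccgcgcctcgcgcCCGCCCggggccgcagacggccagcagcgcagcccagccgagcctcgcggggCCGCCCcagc
Twsg1, chr17:65951138-65951437, minus strand: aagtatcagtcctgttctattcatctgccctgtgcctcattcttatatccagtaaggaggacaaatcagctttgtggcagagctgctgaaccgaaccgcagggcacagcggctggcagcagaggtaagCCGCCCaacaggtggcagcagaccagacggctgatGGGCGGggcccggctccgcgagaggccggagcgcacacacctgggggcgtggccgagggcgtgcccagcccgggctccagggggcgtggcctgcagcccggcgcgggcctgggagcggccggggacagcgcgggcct
GGCGCC was found on either strand in the Grem1, Chrd and Nbl1 windows and in neither the Twsg1 nor the Bmper window, against 11.9% of all promoters. The GC box had 3 matches in Grem1, 4 in Chrd, 4 in Nbl1, 2 in Twsg1 and 1 in Bmper, and 35.7% of all promoters held at least 1. CAGCTG stood once, in Chrd, and in 16.3% of all promoters, and neither TATAAA (13.6% of promoters) nor the Smad element GTCTAGAC (0.213%) stood in any of the 5 windows. The windows ran from 68.0% (Twsg1) to 78.3% (Chrd, Nbl1) G and C, against a median of 52.7% over all promoters. Matches of different motifs did not overlap, a pair of GC boxes in Chrd shares 1 base, and matches describe letters in these windows only.

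The 8 bulk libraries held 8549348 to 55382442 counts. Markers matched the labels in direction: the summed level of 13 telocyte markers was 11782 and 13957 counts per 1000000 (CPM) in telocyte libraries against 1215 and 1574 CPM in PDGFRAlo libraries. Blood endothelial markers also summed to 3470 and 1172 CPM in PDGFRAlo libraries, against 80.3 and 53.8 CPM in telocyte libraries, and plasma-cell markers to 173899 and 68563 CPM in lymphatic libraries. Macrophage markers summed to 2664 and 1919 CPM in blood and 7273 and 9447 CPM in lymphatic libraries. Enteric neuron markers summed to 392 and 185 CPM in blood libraries, against 0.143 and 0 CPM in telocyte libraries. The summed level of enteric glia markers went the other way, at 26.5 and 38.0 CPM in blood and 364 and 239 CPM in telocyte libraries. Most single glia markers did not. Of 8 tested, 6 were lower and 1 was higher in telocytes than in blood endothelium, at an edgeR adjusted p under 0.05. Of all genes, 29.6% were lower and 22.6% higher in that comparison. After filters on genes and mitochondrial reads and removal of predicted doublets, 3849 of 3928 barcodes remained in the sorted single-cell library and 6081 of 6886 in the first and 5916 of 6676 in the second library of whole mesenchyme, with medians of 4845 to 5169 transcript molecules (UMIs) per cell. The whole-mesenchyme libraries shared 9 barcodes, and the sorted library shared 1 with the first and 0 with the second. The labels do not say that replicates came from separate animals, so the p-values rest on library-to-library spread, possibly only technical.

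The sorted bulk populations divided the antagonists between them. Grem1 and Chrdl1 were transcripts of PDGFRAlo cells, while Chrd, Nbl1 and Twsg1 were highest in telocytes and still abundant in PDGFRAlo cells, and endothelium held little of any. Against PDGFRAlo cells, 3 of the 9 were higher in telocytes (2.77% of the 14893 genes tested were) and 2 were lower (12.1% were), at an adjusted p under 0.05 in edgeR's quasi-likelihood test. In bulk, fewer cells of a type and less RNA per cell cannot be told apart.

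Grem1 (chromosome 2, 113746164 to 113758646, minus strand, GRCm38) had 1.43 and 0.545 CPM in telocytes and 276 and 218 CPM in PDGFRAlo cells, then 1.21 and 1.72 CPM in blood endothelium and 3.38 and 0.605 CPM in lymphatic endothelium. Both PDGFRAlo libraries stood far above the other 6, which overlapped one another. The log2 difference of telocytes from PDGFRAlo cells was -7.98 (SE 0.80, edgeR adjusted p = 0.000391). Chrdl1 (chromosome X, 143285674 to 143394262, minus strand) had 0.428 and 0.0605 CPM in telocytes and 31.9 and 44.1 CPM in PDGFRAlo cells, and 0.402 to 2.60 CPM in the 4 endothelial libraries. Again only the PDGFRAlo libraries were high, and the log2 difference was -7.30 (SE 1.06, edgeR adjusted p = 0.00184).

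Bmper (chromosome 9, 23223076 to 23485200, plus strand) had 4.49 and 0.908 CPM in telocytes, 27.9 and 18.7 CPM in PDGFRAlo cells, and 0.135 to 2.93 CPM in endothelium. The PDGFRAlo libraries lay above every other, but the log2 difference of telocytes from them, -3.12 (SE 1.05), missed the threshold (edgeR adjusted p = 0.0838). It passed in DESeq2 (adjusted p = 0.0144), with no filter on low counts (adjusted p = 0.000763 in edgeR) and with the replicate number as a block (edgeR adjusted p = 0.0198).

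Chrd (chromosome 16, 20733127 to 20742384, plus strand) had 381 and 330 CPM in telocytes, 70.9 and 116 CPM in PDGFRAlo cells, 0.0236 and 0.126 CPM in blood endothelium and no count in lymphatic endothelium. Its exons share 239 bases with Thpo on the other strand, and whether the bulk counting used strand is not given in the sources used here. Nbl1 (chromosome 4, 139082284 to 139092993, minus strand) had 3366 and 3396 CPM in telocytes, 814 and 1100 CPM in PDGFRAlo cells and 23.6 to 87.6 CPM in endothelium. Twsg1 (chromosome 17, 65921972 to 65951226, minus strand) had 1643 and 1561 CPM in telocytes, 582 and 459 CPM in PDGFRAlo cells and 22.8 to 87.6 CPM in endothelium. Telocyte libraries were the highest for all 3 genes, with no overlap with PDGFRAlo libraries. The share of all genes without such overlap was not computed, and Fst, which did not pass, showed none either. The log2 differences of telocytes from PDGFRAlo cells were 1.93 for Chrd (SE 0.43), 1.82 for Nbl1 (SE 0.51) and 1.62 for Twsg1 (SE 0.41), with edgeR adjusted p of 0.0181, 0.0399 and 0.0281. These calls were lost when a library was left out: the edgeR adjusted p for Nbl1 was 0.118 to 0.204 and for Twsg1 0.0840 to 0.183 without any 1 telocyte or PDGFRAlo library, and for Chrd 0.0643 to 0.115 without either telocyte library or the first PDGFRAlo library.

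Fst (chromosome 13, 114452290 to 114458951, minus strand) had 12.5 and 7.57 CPM in telocytes, 3.10 and 7.21 CPM in PDGFRAlo cells, 0.260 and 0.796 CPM in blood endothelium and no count in lymphatic endothelium. The second telocyte library was barely above the second PDGFRAlo library, and the difference did not pass (log2 0.95, SE 0.72, edgeR adjusted p = 0.505). Its exons share 115 bases with the antisense gene Gm47040. Sostdc1 (chromosome 12, 36314139 to 36318452, plus strand) and Nog (chromosome 11, 89300638 to 89302332, minus strand) were rare everywhere. Sostdc1 had 0.214 and 0.121 CPM in telocytes, 2.05 and 0.693 CPM in PDGFRAlo cells, 4.0 and 1.34 CPM in blood endothelium and 1.76 and 0.874 CPM in lymphatic endothelium. Nog had 0.143 and 0 CPM in telocytes, 1.19 and 0.323 CPM in PDGFRAlo cells, 0.189 and 3.52 CPM in blood endothelium and 0 and 0.0672 CPM in lymphatic endothelium. Neither differed between telocytes and PDGFRAlo cells at the threshold (edgeR adjusted p = 0.0979 for Sostdc1 and 0.296 for Nog).

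**Figure D1:**
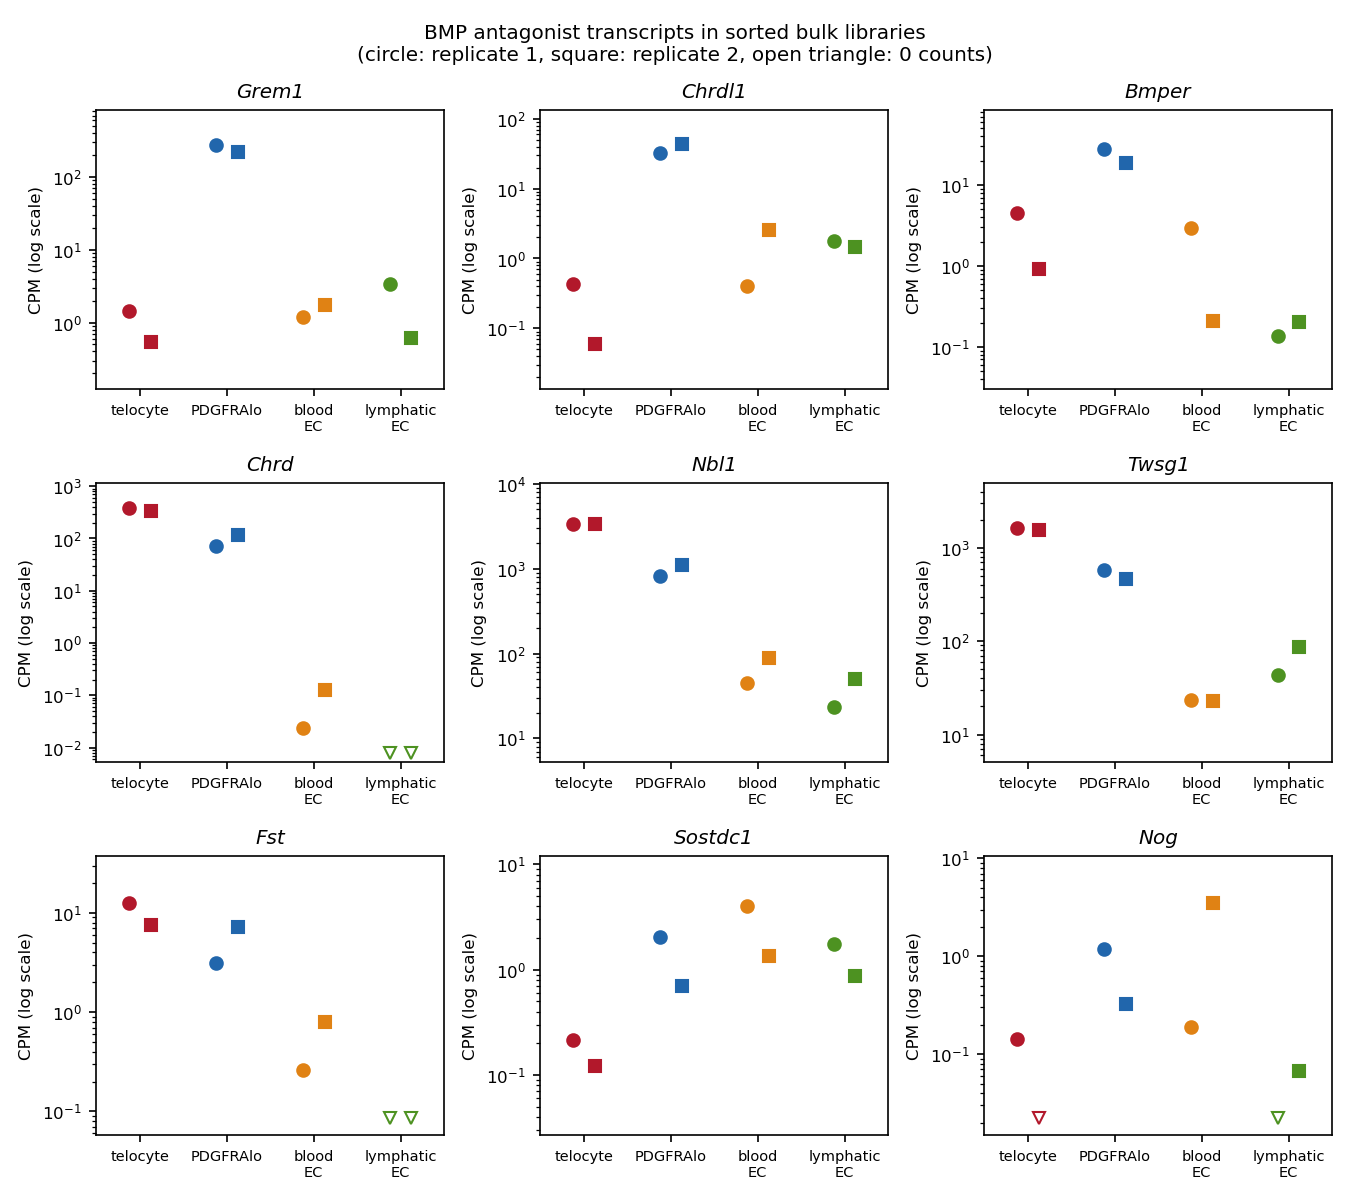
CPM (TMM-scaled, log axis) of each antagonist in the 8 sorted bulk libraries, 2 for each population; open triangles mark libraries with 0 counts. Grem1 and Chrdl1 are high only in PDGFRAlo libraries, and Chrd, Nbl1 and Twsg1 are highest in telocyte libraries.

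Scaled by exon length, Nbl1 was the most abundant antagonist transcript of both stromal populations, at 1663 ± 10.4 RPKM in telocytes and 471 ± 99.7 RPKM in PDGFRAlo cells (mean ± SD, n = 2). In telocytes Twsg1 followed at 311 ± 11.3 RPKM and Chrd at 56.8 ± 5.68 RPKM, while Grem1 stood at 0.238 ± 0.150 RPKM. In PDGFRAlo cells Twsg1 stood at 101 ± 16.9 RPKM, Grem1 at 59.5 ± 9.81 RPKM and Chrd at 14.9 ± 5.04 RPKM, so Grem1, nearly missing from telocytes, ranked after only Nbl1 and Twsg1 in PDGFRAlo cells.

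Against endothelium, Nbl1, Twsg1, Chrd and Fst were higher in both stromal populations. Relative to blood endothelium, 4 members were higher in telocytes (Nbl1, Twsg1, Chrd and Fst; 22.6% of all genes were) and 1 was lower, Sostdc1 (29.6% were). Relative to lymphatic endothelium, 5 were higher in telocytes (the same 4 and Bmper; 24.0% of all genes) and again Sostdc1 was lower (27.0%). In the whole-mesenchyme libraries described below, endothelium-like cells had no Sostdc1 UMI, so the cell behind the bulk counts is not settled. In PDGFRAlo cells, 7 members were higher than in blood endothelium (21.2% of all genes) and the same 7, all but Sostdc1 and Nog, were higher than in lymphatic endothelium (24.1%); 0 were lower in either comparison in edgeR (21.3% of all genes against blood and 20.2% against lymphatic endothelium) or DESeq2, nor at an unadjusted p under 0.05 in edgeR. These comparisons share the stromal libraries. Several calls were lost in edgeR with 1 library left out. For Sostdc1 against blood endothelium, the adjusted p was 0.0591 to 0.0943 without either telocyte library or the first blood library, and against lymphatic endothelium 0.0512 to 0.224 without either telocyte or lymphatic library or the first PDGFRAlo or blood library. For Bmper in telocytes against lymphatic endothelium it was 0.157 to 0.205 without the first telocyte or either lymphatic library. In PDGFRAlo cells against blood endothelium, it was 0.0527 for Bmper without the first PDGFRAlo library, and for Fst 0.0578 without the second PDGFRAlo and 0.0564 without the first blood library. Chrd, with no count in lymphatic endothelium, was at least 2625-fold higher in telocytes and at least 722-fold higher in PDGFRAlo cells, setting lymphatic endothelium at 3 counts over its 2 libraries. Between the endothelia, Twsg1 was lower in blood than in lymphatic endothelium (log2 -1.50, SE 0.42, edgeR adjusted p = 0.0304; 8.32% of all genes were lower), and Fst was at least 3.37-fold higher (0.260 and 0.796 CPM against no count, edgeR adjusted p = 0.0400; 14.7% of all genes were higher). The Twsg1 call was lost without either telocyte or blood library or the second lymphatic one (edgeR adjusted p = 0.0638 to 0.182), and the Fst call without the first telocyte, the second blood or either lymphatic library (edgeR adjusted p = 0.0506 to 0.193).

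The whole-mesenchyme libraries placed the antagonists in cells that the sorts had not separated. Clusters were formed with the 9 members, their pathway genes and niche factors (74 genes) kept out, then named from marker lists where enough markers were found, and UMIs were summed for each class and library. Members were compared with fibroblast-like cells, the class of the PDGFRAlo type (1148 and 1067 cells), over 13084 genes with 2 libraries per class. The telocyte-like class (121 and 114 cells) had 1228 CPM of Pdgfra over both libraries, against 165 to 245 CPM in the 4 fibroblast-like clusters. Pdgfra is among the markers that named the class, so this excess was in part built in. Counting is the limit for small classes, the pericyte-like (30 and 40 cells) and glia-like (39 and 28 cells). Exact 95% Poisson intervals on summed UMIs cover counting error only.

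**Figure D2:**
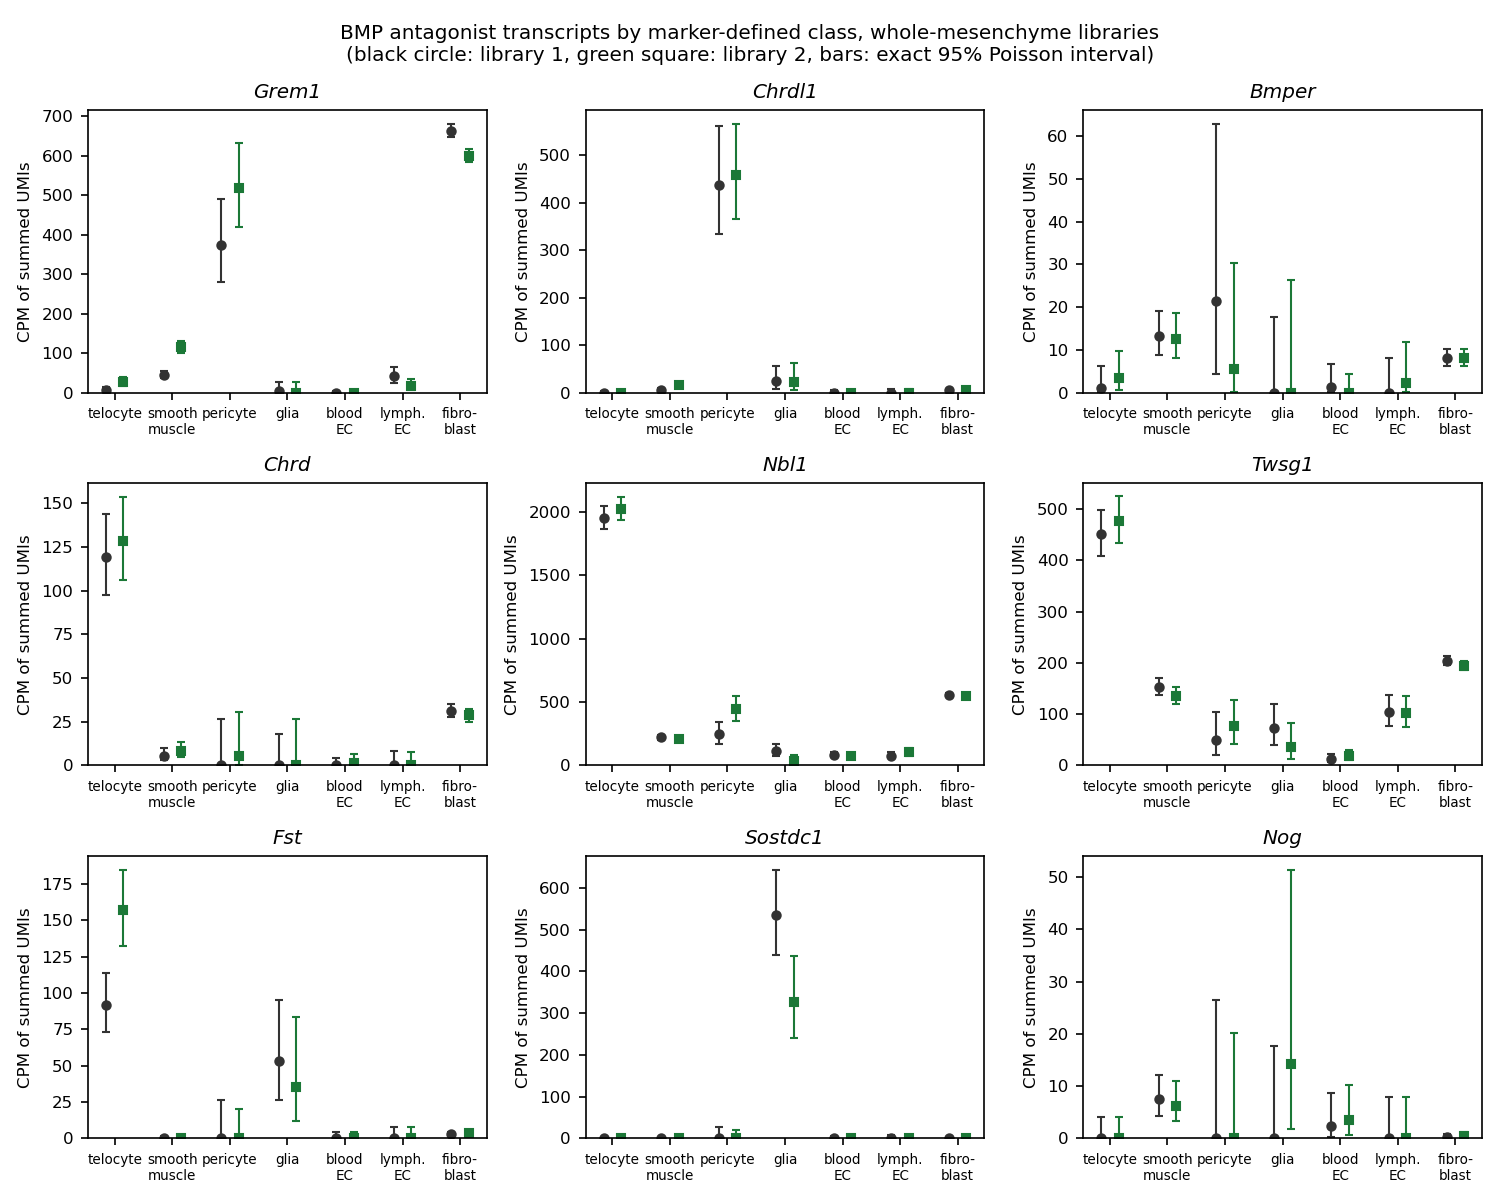
CPM of the summed UMIs of each antagonist in 7 marker-defined classes of the 2 whole-mesenchyme libraries, with exact 95% Poisson intervals. Chrdl1 is high in pericyte-like cells, Sostdc1 in glia-like cells, and Chrd, Nbl1, Twsg1 and Fst in telocyte-like cells; Grem1 is highest in fibroblast-like cells.

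In telocyte-like cells 4 members were higher than in fibroblast-like cells (10.0% of all genes were) and 3 were lower (15.4% were). Chrd had 119 and 128 CPM in telocyte-like cells and 31.0 and 28.6 CPM in fibroblast-like cells, Nbl1 had 1953 and 2026 CPM against 554 and 545 CPM, and Twsg1 had 452 and 477 CPM against 204 and 195 CPM. Telocyte-like cells were higher in both libraries, by log2 1.83 for Chrd (SE 0.18), 1.63 for Nbl1 (SE 0.07) and 1.00 for Twsg1 (SE 0.08), with edgeR adjusted p of 1.75e-10, 2.35e-22 and 2.14e-13. Fst, at 91.6 and 157 CPM in telocyte-like cells against 2.85 and 3.62 CPM in fibroblast-like cells, differed by log2 5.00 (SE 0.24, edgeR adjusted p = 3.33e-18), and telocyte-like cells held 64.8% and 76.9% of each library's Fst UMIs. Grem1 was lower in telocyte-like cells (5.52 and 27.4 CPM against 664 and 601 CPM, log2 -5.48, SE 0.26, edgeR adjusted p = 1.26e-20), and its 5 and 25 UMIs there came from 2 cells in each library. Chrdl1 had no UMI in telocyte-like cells and was at least 3.0-fold lower than in fibroblast-like cells (edgeR adjusted p = 0.00389), and Bmper was lower (1.10 and 3.29 CPM against 7.98 and 8.0 CPM, edgeR adjusted p = 0.0215).

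Fst was not spread over the telocyte-like class. It was detected in 11 of 121 and 19 of 114 cells, with up to 32 and 31 UMIs in a cell. None of the 11 and only 2 of the 19 also had a Chrd UMI, although Chrd was detected in 63 and 60 telocyte-like cells. Cells with Fst had 0 and 13.4 CPM of Chrd against 130 and 151 CPM in cells without it, and no UMI of Wif1, a secreted Wnt inhibitor, against 81.9 and 70.9 CPM. They had more of the growth factor Fgf9 (435 and 267 CPM against 77.1 and 95.8 CPM), of Slitrk6 (303 and 174 CPM against 74.7 and 42.0 CPM) and of Twsg1 (1187 and 782 CPM against 384 and 418 CPM). Tll1, a protease that cleaves chordin, had 66.0 and 33.4 CPM in them against 1.21 and 1.31 CPM, all from few UMIs. Pdgfra, the gene read by the sort, was at 1003 and 895 CPM with Fst against 1238 and 1306 CPM without. Of the 31 and 27 telocyte-like cells with Wif1, 22 and 21 also had Chrd, against 63 of 121 and 60 of 114 in the whole class. These splits rest on 11 and 19 cells, were made after the values were seen and have no test. The median depth was 6441 and 7501 UMIs in cells with Fst and 7299 and 7787 UMIs in cells without it.

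The sorted library held far fewer cells with Fst. Its clusters mostly stayed without a class name and were divided, after their values were seen, at 500 CPM of Pdgfra. Among 1170 cells of the 2 clusters above that level, Fst was detected in 7. Of these 7, 6 had Slitrk6, 5 had Fgf9, 1 had Chrd and 0 had Wif1. Chrd was detected in 549 of the 1170 cells and Wif1 in 374, and 242 had both. Slitrk6 had 372 CPM in the 7 cells against 48.7 CPM in the 1163 without Fst, and Fgf9 203 CPM against 120 CPM. Other transcripts did not follow the whole-mesenchyme split: Twsg1 had 271 CPM with Fst against 284 CPM without, Pdgfra had 1184 CPM against 1020 CPM, and Tll1 had 0 UMIs against 1 UMI. With 7 cells, a count of 0 allows a share of cells with a UMI of up to 42.9%, and this split has no test. All 7 lay in the cluster that also led with the Paneth-cell transcripts Defa24 and Lyz1 (506 cells), where Chrd stood at 88.4 CPM, against 223 CPM in the cluster led by Wif1 (664 cells). Without the first of these clusters, an alternative chosen after seeing the data, no Fst UMI was left in the Pdgfra-rich cells. Between the 1170 Pdgfra-rich and the 2650 Pdgfra-poor cells, the intervals of Fst overlapped (2.68 CPM, 1.50 to 4.42, against 2.91 CPM, 2.05 to 4.02). The median depth of Pdgfra-rich cells was 4253 UMIs with Fst and 4581 UMIs without, below that of telocyte-like cells in whole mesenchyme. The 2 classes were also defined differently. The part of depth and of class definition in the smaller share with Fst was not tested.

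Pericyte-like cells carried Chrdl1. It had 438 and 458 CPM there against 5.47 and 4.37 CPM in fibroblast-like cells (log2 6.18, SE 0.27, edgeR adjusted p = 1.14e-18), the only member higher in pericyte-like cells (7.52% of all genes were) while 4 were lower (10.7% were). These 30 and 40 cells held 47.7% and 53.8% of each library's Chrdl1 UMIs, against 37.5% and 22.4% in the fibroblast-like class. Grem1 was also present at 374 and 518 CPM in pericyte-like cells, against 664 and 601 CPM in fibroblast-like cells. That difference (log2 -0.78, SE 0.22, edgeR adjusted p = 0.00774) did not pass with DESeq2's size factors (adjusted p = 0.0689 in edgeR), which moved the median of all genes by 0.197, nor with predicted doublets kept (adjusted p = 0.0512 in edgeR). Chrd, Nbl1 and Twsg1 were the other members that were lower.

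Within the class, Chrdl1 and Grem1 sat in the same cells. Chrdl1 was detected in 15 of 30 and 15 of 40 pericyte-like cells, and every cell with a Grem1 UMI, 11 and 12, was among them. Cells with Chrdl1 had 576 and 1039 CPM of Grem1 and cells without it had none. Rgs5, which marks mural cells, had 6772 and 6059 CPM with Chrdl1 and 7004 and 7075 CPM without, and 8 of the 10 pericyte markers were at a lower level with Chrdl1 in both libraries (summed level 9200 and 8816 CPM against 11292 and 11139 CPM). Cspg4 (the pericyte marker NG2) was detected in 0 of 15 and 0 of 15 cells with Chrdl1, which allows a share of cells with a UMI of up to 20.0% in each, against 6 of 15 and 11 of 25 without. Of 11 smooth muscle or myofibroblast markers, 9 were at a higher level with Chrdl1 in both libraries (summed level 10552 and 13005 CPM against 3451 and 3934 CPM), among them Acta2 at 3070 and 4397 CPM with Chrdl1 against 878 and 674 CPM without. Of 13 fibroblast markers, 8 were at a higher level in both libraries and 0 at a lower one (summed level 6672 and 6978 CPM against 3022 and 3152 CPM), among them Dcn at 1818 and 2319 CPM against 61.3 and 130 CPM. Rspo3, the R-spondin that sustains crypt stem cells, had 111 and 175 CPM with Chrdl1 and no UMI without. The split was made after the values were seen and has no test. The share of all genes at a higher or lower level with Chrdl1 in both libraries was not computed, so the marker counts have no background. The median depth was higher with Chrdl1 (5503 and 6106 UMIs against 3038 and 3744 UMIs), and the part of depth, of fibroblast or muscle RNA or of undetected doublets in these differences was not tested.

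The smooth muscle-like class (329 and 287 cells left after the muscle had been stripped) rests on a list for smooth muscle or myofibroblasts. In it 2 members were higher than in fibroblast-like cells (17.6% of all genes were) and 5 were lower (23.3% were). Nog had 7.51 and 6.27 CPM in smooth muscle-like cells against 0.228 and 0.50 CPM in fibroblast-like cells (log2 3.90, SE 0.68, edgeR adjusted p = 1.51e-05). It was detected in 13 of 329 and 10 of 287 of these cells, which held 80.0% and 52.2% of each library's few Nog UMIs (20 and 23), and in 0 of 788 and 0 of 801 plasma cells (up to 0.381% and 0.375% with a UMI allowed), whose median depth was 22351 and 22037 UMIs. Chrdl1, at 6.10 and 16.2 CPM against 5.47 and 4.37 CPM, passed narrowly (log2 0.94, edgeR adjusted p = 0.0253) and rested on the second library: without it the log2 difference was -0.032. Bmper had 13.1 and 12.5 CPM against 7.98 and 8.0 CPM and did not pass (log2 0.50, SE 0.33, edgeR adjusted p = 0.250). Grem1 was lower, at 44.6 and 115 CPM against 664 and 601 CPM (log2 -3.21, SE 0.15, edgeR adjusted p = 2.17e-21), as were Chrd, Nbl1, Twsg1 and Fst, the last with no UMI and at least 4.34-fold lower.

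Grem1 in the muscle class came from few cells, and these were rich in Rspo3. It was detected in 15 of 329 and 23 of 287 smooth muscle-like cells, 37 of these 38 in the cluster led by Hhip and Actg2 and 1 in the cluster led by Pln and Mustn1. Cells with Grem1 had 617 and 460 CPM of Rspo3, against 7.45 and 7.01 CPM in cells without it, and 12 of 15 and 13 of 23 of them had an Rspo3 UMI. Chrdl1 had 59.2 and 100 CPM in them against 2.98 and 6.42 CPM. Of the 11 smooth muscle or myofibroblast markers, 3 were at a higher and 5 at a lower level with Grem1 in both libraries, with a summed level of 34046 and 30518 CPM against 34333 and 34626 CPM. Myh11 had 4431 and 3694 CPM with Grem1 against 4574 and 4613 CPM without, and Actg2 had 2326 and 2032 CPM against 1908 and 1867 CPM. Hhip, an inhibitor of hedgehog ligands and another of these markers, was at 753 and 801 CPM with Grem1 against 2140 and 2213 CPM without. Of the 13 fibroblast markers, 9 were at a higher level with Grem1 in both libraries and 0 at a lower one (summed level 9624 and 13980 CPM against 6596 and 5947 CPM), among them Dcn at 3873 and 4990 CPM against 2059 and 1746 CPM. Pdgfra had 59.2 and 75.1 CPM against 3.98 and 4.67 CPM. The split has no test, and the part of fibroblast RNA in the Grem1 level was not tested. The share of all genes at a higher or lower level with Grem1 in both libraries was not computed either.

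**Figure D3:**
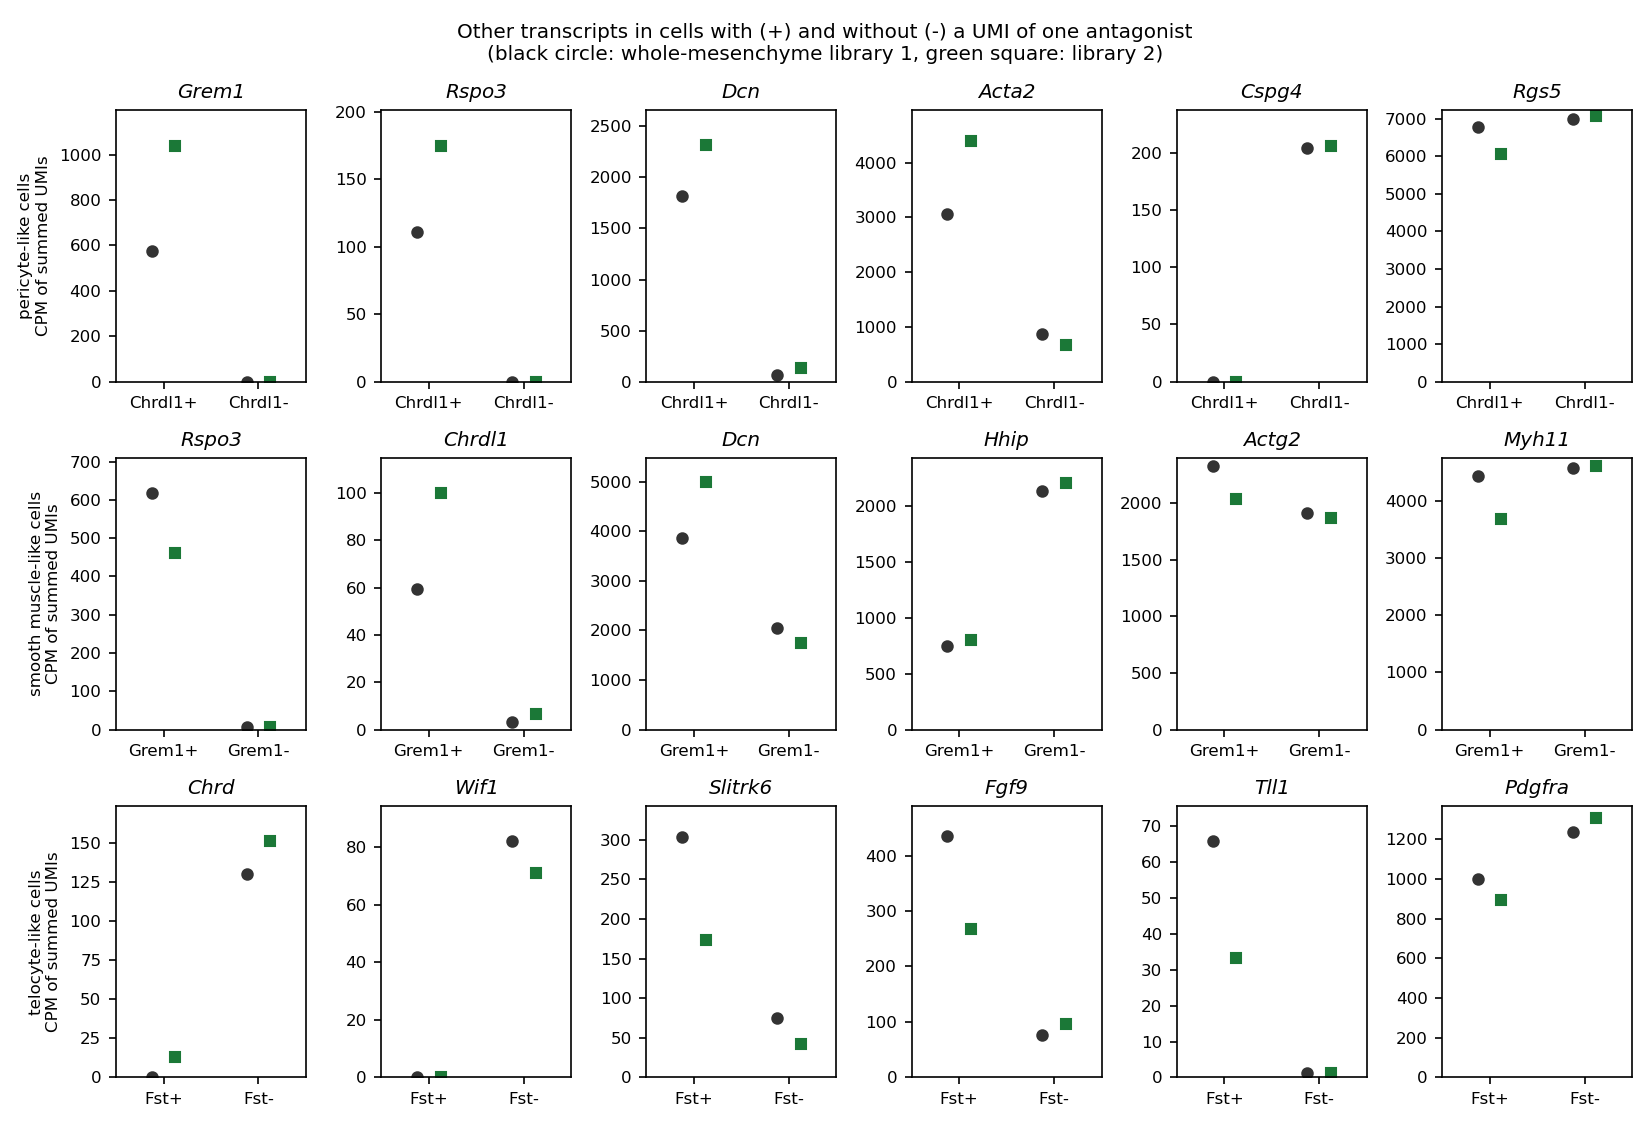
CPM of other transcripts in cells with and without a UMI of 1 antagonist: Chrdl1 in pericyte-like cells (top), Grem1 in smooth muscle-like cells (middle) and Fst in telocyte-like cells (bottom), for both whole-mesenchyme libraries. Grem1 is at 0 in pericyte-like cells without Chrdl1, Rspo3 stands out in muscle cells with Grem1, and Chrd and Wif1 are near 0 in telocyte-like cells with Fst.

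Sostdc1 was found almost wholly in glia-like cells. Glia-like cells had 535 and 328 CPM, against 0 and 0.12 CPM in fibroblast-like cells (log2 11.54, SE 0.49, edgeR adjusted p = 3.01e-18), and held 99.1% and 95.8% of each library's Sostdc1 UMIs. It was detected in 31 of 39 and 20 of 28 glia-like cells. Telocyte-like, blood endothelium-like and lymphatic endothelium-like cells had no Sostdc1 UMI, although bulk endothelium had more Sostdc1 than bulk telocytes. The source of the bulk counts was not tested. Fst was the other member that was higher in glia-like cells (8.98% of all genes were), at 53.0 and 35.6 CPM against 2.85 and 3.62 CPM (log2 3.52, SE 0.60, edgeR adjusted p = 2.13e-05), and every glia-like cell with Fst, 8 and 4, also had Sostdc1. The 4 members that were lower (13.0% of all genes were) were Grem1, Nbl1, Twsg1 and Chrd, the last with no UMI and at least 3.46-fold lower. In the sorted single-cell library no Sostdc1 or Nog UMI was found in 1170 Pdgfra-rich or 2650 Pdgfra-poor cells, which allows up to 0.536 and 0.236 CPM.

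Endothelial classes held little. In blood endothelium-like cells (154 and 158) 7 members were lower than in fibroblast-like cells (24.2% of all genes were), with Grem1 at least 356-fold with no UMI, and 1 was higher (23.6% were): Nog, at 2.41 and 3.5 CPM against 0.228 and 0.50 CPM, from 2 UMIs in 1 cell and 3 UMIs in 1 cell (edgeR adjusted p = 0.0415). That call was lost with no filter on low counts, at the lower clustering resolution and with predicted doublets kept. In lymphatic endothelium-like cells (85 and 80) 6 were lower (21.3% of all genes) and 0 were higher in edgeR (16.7%). Chrd, Chrdl1, Fst, Nog and Sostdc1 had no UMI in this class, which fixes the sign of their log2 differences. Those of Grem1, Nbl1, Twsg1 and Bmper lay below 0. Grem1 in this class, at 41.1 and 17.0 CPM, came from 19 UMIs in 1 cell and 8 UMIs in 3 cells. Twsg1 had 12.05 and 18.7 CPM in blood and 104 and 102 CPM in lymphatic endothelium-like cells, a difference not tested in single cells.

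Most Grem1 UMIs, 96.3% and 92.3%, were in fibroblast-like cells, yet only 52.4% and 52.1% of these cells had one. For comparison, 1.78% and 2.62% of plasma cells, which should lack the gene, had a Grem1 UMI at median depths of 22351 and 22037 UMIs, against 7642 and 7500 UMIs in fibroblast-like cells. The level followed clusters. The cluster led by Cilp, C3 and Col14a1 (211 and 178 cells) had 2081 and 1876 CPM of Grem1, detected in 95.3% and 92.1% of its cells. The cluster led by Fbln1 and C3 had 477 and 483 CPM, the cluster led by Mfap4 and Sfrp1 had 360 and 349 CPM, and the cluster led by Mmp10 and Cxcl14 had 86.9 and 36.7 CPM. Chrdl1 was likewise highest in the Cilp cluster, at 25.8 and 21.5 CPM, and had 0 to 1.38 CPM in the others, from 0 to 3 UMIs in a cluster and library. Chrd was even over the first 3 clusters, at 30.7 to 41.0 CPM, but stood at 8.47 and 7.22 CPM in the Mmp10 cluster, where Bmper was highest, at 13.2 and 17.7 CPM against 4.54 to 7.64 CPM elsewhere. Fst had 7.61 and 20.1 CPM in the Cilp cluster, 6.36 and 0 CPM in the Mmp10 cluster (12 UMIs, all in 1 cell) and no UMI in the other 2. Clusters were not tested against one another.

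The sorted library ordered its Pdgfra-poor clusters likewise. Its cluster led by Prss23 and Cilp (785 cells) had 1174 CPM of Grem1, detected in 91.6% of cells, with 74.8% of the library's Grem1 UMIs and 96.6% of its Chrdl1 UMIs. The cluster led by Pi16 had 230 CPM, the others 122 to 221 CPM, and the cluster led by Mmp10 had 58.5 CPM of Grem1, 9.10 CPM of Chrd and 13.0 CPM of Bmper. Across the library, Pdgfra-rich cells had 6.25 CPM of Grem1 (4.36 to 8.70) against 449 CPM in Pdgfra-poor cells (437 to 460), 171 CPM of Chrd against 57.3 CPM, and 3443 CPM of Nbl1 against 964 CPM. Barcodes with 1 to 50 UMIs, which hold free RNA, had 207 CPM of Grem1 in this library, above the level in Pdgfra-rich cells, and 55.1 CPM of Chrd and 1380 CPM of Nbl1, near and above the levels in Pdgfra-poor cells. The part of free RNA in these levels was not tested. The sorted library has no replicate, so these differences have no test.

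**Figure D4:**
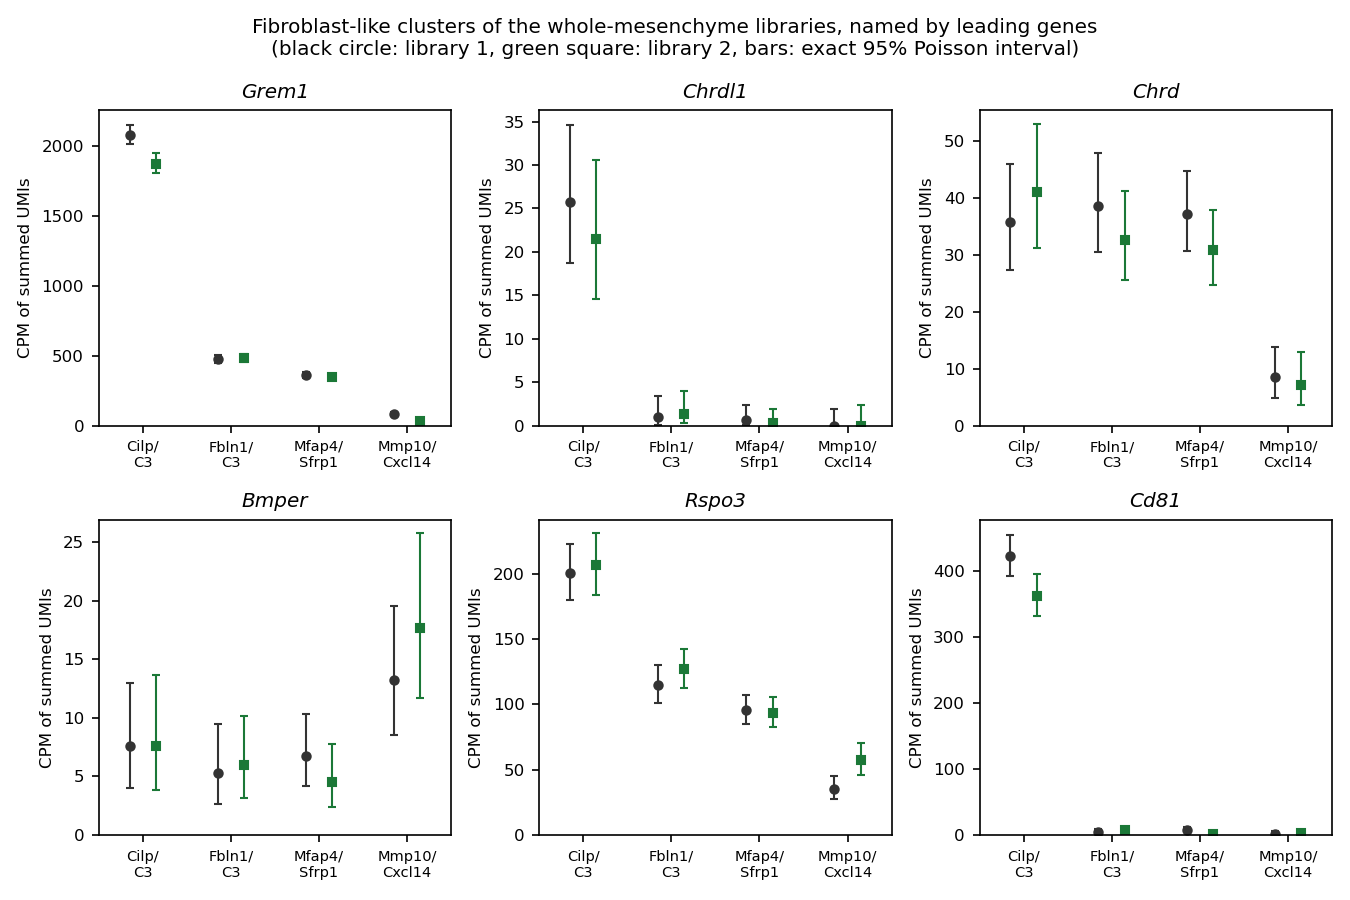
CPM of the summed UMIs of 4 antagonists and of Rspo3 and Cd81 in the 4 fibroblast-like clusters of each whole-mesenchyme library, with exact 95% Poisson intervals. Grem1, Chrdl1 and Cd81 peak in the Cilp cluster, and Bmper is highest and Chrd lowest in the Mmp10 cluster.

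Grem1 was next set against Rspo3 and Cd81, a tetraspanin used to mark a crypt-base stromal cell, cell by cell. In the sorted library, 45.5% of the 1309 Pdgfra-poor cells with Grem1 had an Rspo3 UMI (exact 95% binomial interval 42.7 to 48.2), against 31.6% of the 1341 without Grem1 (29.1 to 34.2). For Cd81 the shares were 49.5% with Grem1 (46.8 to 52.2) and 5.67% without (4.49 to 7.04). Both transcripts together were found in 22.1% of cells with Grem1 and 1.57% of cells without, and neither in 27.1% with and 64.3% without. Whole-mesenchyme fibroblast-like cells gave 55.9% and 55.4% with Rspo3 among cells with Grem1, against 29.4% and 29.9% among cells without. Cd81 was found in 28.0% and 23.4% of cells with Grem1 and 1.83% and 3.13% of cells without. Rspo3 and Cd81 were thus each found more often with Grem1 in all 3 libraries.

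**Figure D5:**
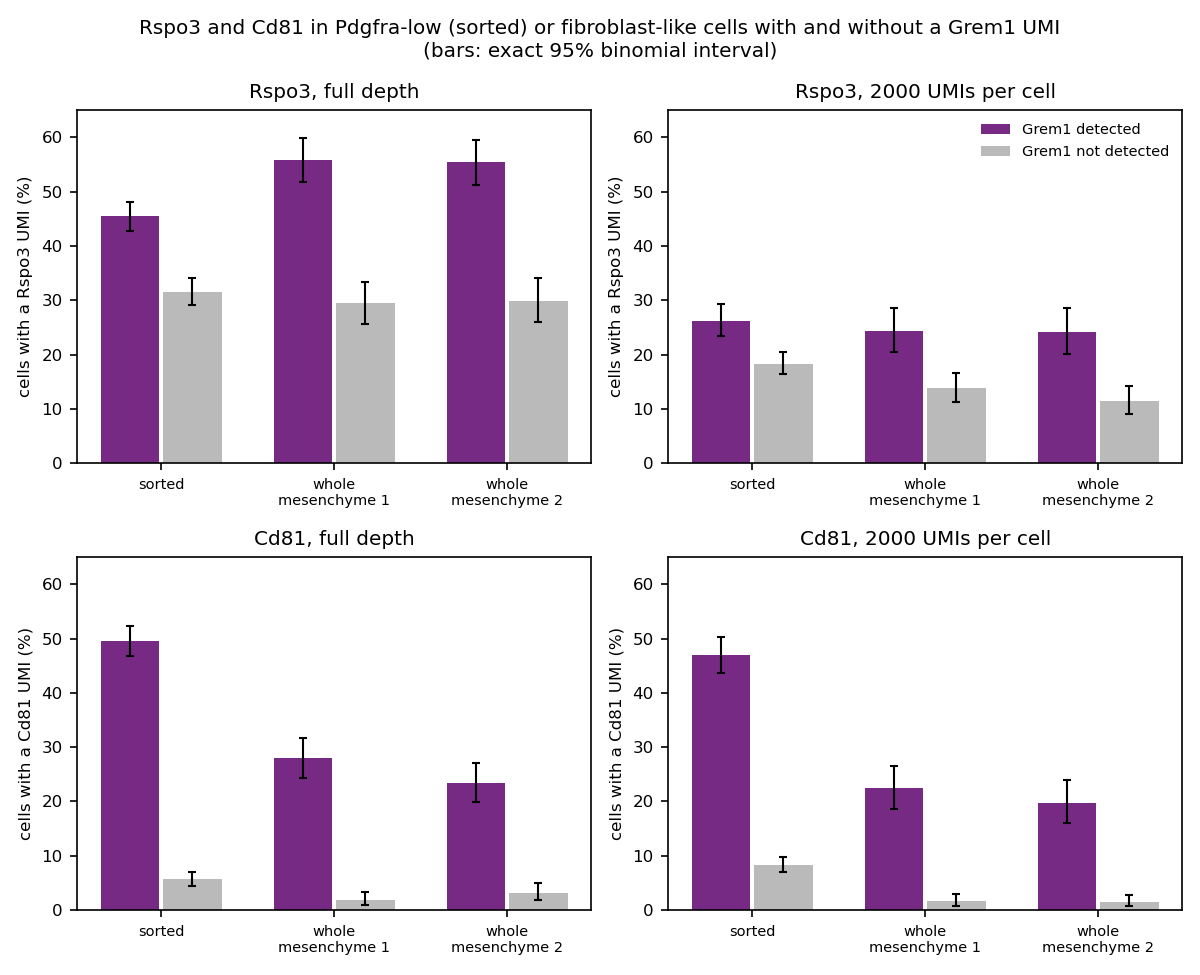
Share of cells with an Rspo3 (top) or Cd81 (bottom) UMI among cells with and without a Grem1 UMI, at full depth (left) and with each cell thinned to 2000 UMIs (right), for Pdgfra-poor cells of the sorted library and fibroblast-like cells of both whole-mesenchyme libraries; bars are exact 95% binomial intervals. The Cd81 share is 19.8% to 49.5% with Grem1 and at most 8.27% without.

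Cells with Grem1 were slightly deeper (medians of 5249, 7910 and 7702 UMIs, against 4660, 7446 and 7296 UMIs). With each cell thinned to 2000 UMIs, Rspo3 was found in 26.3%, 24.4% and 24.2% of cells with Grem1 and in 18.4%, 13.8% and 11.5% of cells without, in the sorted and the 2 whole-mesenchyme libraries. For Cd81 the thinned shares were 47.0%, 22.4% and 19.8% with Grem1 and 8.27%, 1.62% and 1.55% without. Cells under that depth, 261 in the sorted library and 18 in each of the others, were left out. Cd81 was concentrated where Grem1 was highest: the Cilp cluster had 423 and 362 CPM of Cd81 and the other 3 fibroblast-like clusters 2.1 to 7.76 CPM, while Rspo3 ranged less widely, from 35.5 to 206 CPM. Yet Cd81 was no mark of Grem1 cells at large. Fibroblast-like cells held only 14.7% and 10.8% of each whole-mesenchyme library's Cd81 UMIs, blood endothelium-like cells, with no Grem1 UMI, had 574 and 594 CPM of Cd81, and of the muscle cells with Grem1, 0 of 15 and 4 of 23 had Cd81.

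Other genes of the pathway, taken from lists, were tested in the same fits. Of all genes, 2.77% were higher and 12.1% lower in bulk telocytes than in PDGFRAlo cells. In telocyte-like cells 10.0% of all genes were higher and 15.4% lower than in fibroblast-like cells. Of 14 other secreted BMP or activin antagonists, 10 were tested between bulk telocytes and PDGFRAlo cells: Smoc2 (log2 3.04, edgeR adjusted p = 0.0215) and Kcp (log2 1.99, edgeR adjusted p = 0.00908) were higher, 2 were lower, among them Vwc2, and 6 did not pass. In single cells 5 of 10 were higher in telocyte-like than in fibroblast-like cells, among them Smoc1 (29.8 and 41.7 CPM against 0 and 0.12 CPM), and 4 were lower, so that the list's median log2 was -0.31 against -0.10 over all genes. A list built around chordin-cleaving proteases held 5 genes: Bmp1, Tll1, Tll2, Pcolce and Pcolce2. Whether Tll2, Pcolce and Pcolce2 act on chordin was not tested. In bulk telocytes Tll2 was higher (11.5 against 0.0330 CPM, edgeR adjusted p = 0.00510) and Pcolce2 lower (log2 -10.63, edgeR adjusted p = 0.000242). Tll1 passed in telocyte-like cells, at 6.63 and 6.58 CPM, from few UMIs, against no UMI in fibroblast-like cells (edgeR adjusted p = 5.36e-06). Bmp1 was lower (log2 -0.75, edgeR adjusted p = 3.18e-06). In bulk, Tll1 averaged 1.83 CPM in telocytes and 6.17 CPM in PDGFRAlo cells and did not pass (edgeR adjusted p = 0.353). Of 4 ligands that follistatin binds, 3 were tested and none passed in bulk edgeR, while all 3 were higher in telocyte-like cells: Inhbb (26.5 and 25.2 CPM against 0.114 and 0.12 CPM), Inhba (34.2 and 21.9 CPM against 8.10 and 7.75 CPM) and Gdf11. Within that class, cells with Fst had no Inhbb UMI, against 28.9 and 30.2 CPM in cells without. In the first library, cells with Fst were too few for this absence to show a lower level. Inhba had 106 and 46.8 CPM in cells with Fst and 27.7 and 17.1 CPM in cells without. These splits by Fst were made after the values were seen and have no test.

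Of 14 BMP ligands, 9 were tested in bulk and 5 were higher and 2 (Gdf6 and Gdf10) lower in telocytes, with a list median of log2 1.45 against -0.03 over all genes. In that comparison 2.77% of all genes were higher and 12.1% lower. Of 20 receptors, Smads and targets, 0 were higher and 4 lower in bulk telocytes in edgeR, with a median of -0.06. Of 8 crypt niche factors, among them Rspo3 and Cd81, 7 were lower in bulk telocytes (12.1% of all genes) and 7 in telocyte-like cells (15.4%). Of the other antagonists, 3 of 10 were higher in smooth muscle-like than in fibroblast-like cells, among them Crim1 (125 and 141 CPM against 26.0 and 31.7 CPM) and Smoc1, and 4 were lower, where 17.6% of all genes were higher and 23.3% lower. In pericyte-like cells 2 of 10 were higher, among them Crim1 (302 and 300 CPM), and 4 were lower, where 7.52% of all genes were higher and 10.7% lower.

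Over 15 whole-mesenchyme classes, the transcripts whose log2(CPM + 1) was most like each member's were Lgi2 for Grem1 (Pearson r = 0.962), Prrx1 for Chrdl1 (0.979), Dnm1 for Chrd (0.966), Lamb1 for Nbl1 (0.978), Mthfd2l for Twsg1 (0.944), Fgf9 for Fst (0.955), Gpr37l1 for Sostdc1 (1.00) and Pcdh18 for Bmper (0.942). The classes share 2 libraries and differ in cell number and depth, so these values describe likeness only. Nog had too few UMIs, 43, for the measure.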

How the data were processed

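The 11 samples comprise 8 bulk libraries of sorted cells and 3 droplet libraries. The deposited values are raw read counts per gene in bulk and UMI counts per cell in the single-cell matrices, per the file headers and values. The submitters' processing notes name STAR, mm10, Cell Ranger 2.1.1 and 3.0.2, and Seurat; for bulk, the counting tool and whether it used strand were not given in the sources used here. Members and lists were chosen with earlier results of these data known. Genes named beyond the members were the most significant of each list, genes tied to a member, and the transcripts most like it; the genes of the within-class splits and those completing counts of 5 or fewer were chosen after their values were seen.

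Bulk counts were fitted with edgeR 4.0.16 (R 4.3.3, quasi-likelihood, TMM, filterByExpr) over all 8 libraries, 1 mean per population, 4 residual degrees of freedom, with Benjamini-Hochberg adjustment over 14893 genes. The 26 names that a spreadsheet had turned into dates were left out. RPKM was computed here from CPM and the exon union of GENCODE M21. Cells were kept with at least 500 genes and mitochondrial UMIs below 10%, predicted doublets removed (scanpy 1.11.5, scrublet), and 30 components of 2000 variable genes clustered (leidenalg 0.10.2, 15 neighbours, resolution 1). UMIs were summed for 14 classes holding at least 20 cells in each library, and the sums entered an edgeR fit that blocks on library (13 residual degrees of freedom). Both fits were tested on simulated data. Alternatives were RLE scaling, no filter on low counts, DESeq2 1.42.0, a replicate block, pairs fitted alone, libraries left out, resolution 0.5, 1000 genes per cell, doublets kept and cells thinned to 1000 or 2000 UMIs. Intervals are exact, at 95%; the upper limit given for a count of 0 is 3 counts of the total and bears on cells with a UMI, not on cells expressing the gene. Both cover counting error only.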

Additional observations from a re-analysis of the deposited data

How the results depend on the processing

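Of the bulk log2 differences of members under the alternatives, 632 kept their side of the threshold, 27 newly passed and 35 no longer passed. Reversed signs numbered 0, counted only where the main or the alternative fit passed. A change of sign where neither passed is among the 632. In whole mesenchyme 412 were labelled unchanged, 8 no longer passed and 2 newly passed. Another 9 values with a library left out moved by more than the spread between libraries, and 1 reversed. Values with a library left out have no test there, and those within that spread are among the 412. The one reversed, the difference of Chrdl1 between smooth muscle-like and fibroblast-like cells, was -0.032 to 1.70 with either whole-mesenchyme library left out, -0.032 without replicate 2, and 1 member in place of 2 was higher in that class at resolution 0.5. Members lower in telocytes than in blood endothelium numbered 3 with no filter and 3 with DESeq2, against 1; than in lymphatic endothelium 2 with no filter, 2 with DESeq2 and 2 with the pair fitted alone, against 1. Members higher in blood than in lymphatic endothelium numbered 3 with no filter, 3 with DESeq2 and 0 with the pair alone, against 1, and 0 were higher in blood endothelium-like cells with no filter, at resolution 0.5 or with doublets kept, against 1. With 1 bulk library left out, members higher in telocytes than in PDGFRAlo cells numbered 0 to 3 and lower 2 to 3; telocytes against blood endothelium 4 to 5 higher and 0 to 2 lower; telocytes against lymphatic endothelium 4 to 5 and 0 to 2; PDGFRAlo cells 6 to 7 higher than blood and 7 to 7 higher than lymphatic endothelium; blood against lymphatic endothelium 0 to 2 and 0 to 1. The cause was not tested for any of these.

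Thinned to 1000 UMIs, Rspo3 was found in 14.3% of sorted cells with Grem1 and 9.69% without, in 18.9% and 7.41% in the first whole-mesenchyme library and in 13.8% and 9.02% in the second, where the intervals overlap (10.1 to 18.3 and 7.09 to 11.3); Cd81 was found in 34.0% with and 7.93% without in sorted cells and in 14.1% with Grem1 in both others. Thinned to 2000 UMIs, Rspo3 shares were 26.3% with and 18.4% without, 24.4% and 13.8%, and 24.2% and 11.5%; Cd81 shares were 47.0% and 8.27%, 22.4% and 1.62%, and 19.8% and 1.55%. Thinning also moves cells with Grem1 into the group without it, and the shares of Cd81 without Grem1 in sorted cells were above the 5.67% at full depth. Among sorted cells with 1000 or more genes, 35.0% without Grem1 had Rspo3. In Pdgfra-rich sorted cells, Grem1 was 23.7 CPM and Nbl1 3382 CPM with doublets kept; without the cluster with Paneth-cell transcripts, chosen after seeing the data, Chrdl1 was 0, Chrd 223, Nbl1 3618, Twsg1 259 and Fst 0 CPM.

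Same-numbered bulk libraries share only a number: their deviations correlated at -0.103 to 0.195 between populations. With the replicate block Bmper passed between telocytes and PDGFRAlo cells (log2 -3.57, edgeR adjusted p = 0.0198). RLE scaling moved the median of all genes by 0.197 in pericyte-like and 0.185 in glia-like cells. Small classes limit precision: 30 and 40 pericyte-like cells, 39 and 28 glia-like cells, and 20 and 23 Nog UMIs in all.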

Other observations

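Barcodes with 1 to 50 UMIs, which hold free RNA, had 90.9 and 78.7 CPM of Grem1 in the whole-mesenchyme libraries, above its level in telocyte-like cells (5.52 and 27.4 CPM), and 1380 CPM of Nbl1 in the sorted library. Fst was detected in 9.09% and 16.7% of telocyte-like cells of whole mesenchyme and in 0.598% of Pdgfra-rich sorted cells, which were shallower and defined differently. Smooth muscle-like cells with a Nog UMI numbered 13 and 10.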
